A study of Mus musculus with 12 samples.

Results

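Splenic B cells of wild-type (WT) mice were sequenced without treatment in 2 sets within this series, and the sets were compared with each other. The numbered set holds 3 libraries, titled WT1, WT2 and WT3, and the additional set holds 2 libraries that carry only a running number in their titles. These 5 libraries were taken by title from the 12 of the series, and their read counts were joined by Ensembl gene identifier. All 5 are labelled as WT genotype, spleen, B cell and untreated. B cells were enriched by removing CD43-bearing cells on magnetic beads, washed and lysed. The other 7 libraries are 3 untreated and 2 stimulated libraries of mice in which hnRNP A1 and hnRNP A2B1, a pair of RNA-binding proteins, were deleted by Cre-loxP recombination (DKO), and 2 stimulated WT libraries cultured for 48 h in serum-containing medium with anti-IgM at 10 µg/mL together with anti-CD40 at 1 µg/mL. The labels used here give no age, strain, sex, Cre driver or pooling, and do not state whether each library is a separate animal. The p-values below thus cover only the spread among these libraries. The series asks how both proteins regulate the germinal centre B cell response. Why a further WT set was sequenced is not stated in the sources used here. The sets were deposited in separate tables with gene models of different genome builds, so set, preparation batch, table and any difference in the state of the cells cannot be told apart.

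Mature B cells in the spleen are mostly small resting follicular cells, with marginal zone cells, recent arrivals from the bone marrow and a few germinal centre and plasma cells beside them. Binding of antigen to the B cell receptor induces immediate early genes within minutes, and help through CD40 adds NF-kB target genes, amino acid uptake, ribosome synthesis and sterol synthesis as the cells prepare to divide. Type I interferon, a cytokine of antiviral defence, switches on a separate programme of interferon-stimulated genes in resting and activated cells alike.

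B cell identity was checked in every library. Cd79a, a subunit of the B cell receptor, was at 761, 613 and 804 CPM (counts scaled to a common library total) in numbered libraries 1, 2 and 3, and at 865 and 1088 CPM in additional libraries 1 and 2. Ms4a1, which encodes CD20, was at 738 to 781 CPM in the numbered and 729 to 917 CPM in the additional set. All 9 B cell markers examined were present in all 5 libraries, the lowest being the complement receptor Cr2 at 69.5 CPM. Genes known from activation, rest and proliferation, chosen after their values were seen, are given beside stimulated cells. Ccl22, a chemokine of activated B cells, was at 428 to 692 CPM in the numbered set, at 1027 and 1663 CPM in the additional set, and at 1808 and 1885 CPM after stimulation. Cd83, a surface protein induced by CD40, was at 506 to 548, at 585 and 631, and at 623 and 676 CPM in the same order. Klf2, a transcription factor of resting lymphocytes, was at 13.8 to 16.6 and at 12.02 and 12.9 CPM in the untreated sets and at 5.93 and 7.65 CPM after stimulation. The proliferation gene Mki67 set the stimulated cells apart, at 1589 and 1663 CPM against 241 to 432 CPM in the numbered and 459 and 576 CPM in the additional set.

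Total counts ran from 15090953 to 19321253 per library, and the 52340 genes listed in both tables held 99.7% to 99.93% of them. Exonic length was equal in both tables for 52185 of these genes, 99.7%. Gene start positions in the additional table equalled those of GENCODE M21, an annotation of build GRCm38, for 51834 of 52083 genes, and those of the numbered table did so for 1462. The submitters' processing notes name GRCm39 only. Numbered library 2 held 34544 Xist counts and no counts of Y-linked genes, as in a female, and the other 4 libraries held 6606 to 8538 Y-linked counts. Rank correlations of log2 CPM were 0.9864 to 0.9937 within the sets and 0.9287 to 0.9485 between them. Mitochondrial transcripts took 2.07% to 2.092% of the counts in the numbered and 3.277% to 3.402% in the additional set, pseudogenes 2.08% to 2.22% and 3.088% to 3.137%, and immunoglobulin genes 0.6284% to 0.6688% and 0.4071% to 0.5011%.

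Of 14357 genes that passed the filter on low counts, 7871 differed between the sets at an adjusted p under 0.05 in edgeR's quasi-likelihood test with Benjamini-Hochberg adjustment, which is 54.8% of the genes tested. In the additional set 3771 genes were higher (26.3%) and 4100 were lower (28.6%). A change of at least 1 on the log2 scale (additional over numbered) was reached by 1871 of the higher and 1681 of the lower genes. The values of both sets did not overlap for 10318 genes, 71.9% of those tested. With most genes past the threshold, the count of a gene group is read below against these shares. All adjusted p-values below come from this test, and log2 fold changes are given with their standard errors.

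Fold changes went with base composition. Among 9706 protein-coding genes with a mean log2 CPM above 2, the log2 fold change fell with the GC content of the longest transcript, with a Spearman correlation of -0.488 across genes, which are not independent replicates. The median log2 change was 0.515 in genes with at most 40% GC and -0.729 in genes with 56% to 60% GC. The mean GC content weighted by counts was 48.52% to 48.68% in the numbered and 47.19% to 47.41% in the additional libraries. A second fit with an offset per library for GC content, chosen after this relation was seen, brought the correlation to -0.0267. It called 7163 genes (49.9%), of which 3671 were higher (25.6%) and 3492 lower (24.3%). Of the genes called without the offset, 5736 were also called with it, 5717 of them in the same direction. Values with the GC offset are given beside many of the gene groups below, and beside genes whose values it moved most. Counts of a gene group with the offset are read against its own shares of 25.6% higher and 24.3% lower.

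**Figure D1:**
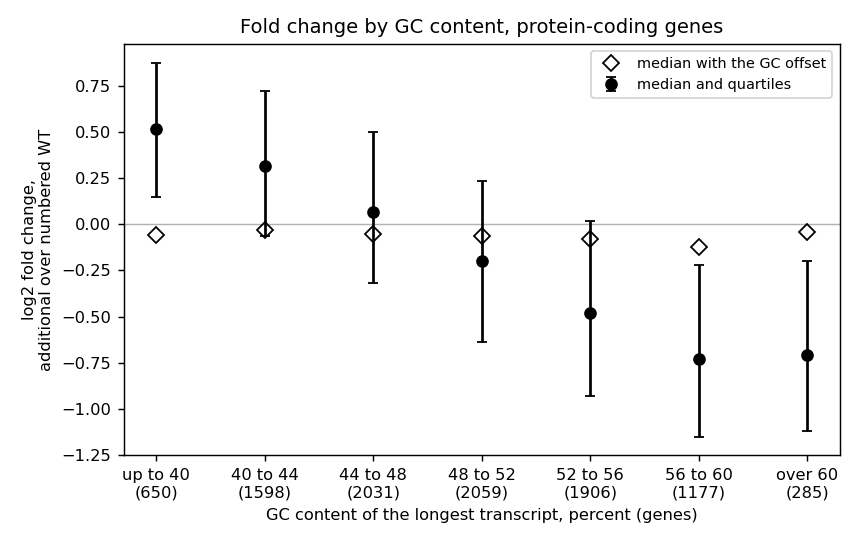
Log2 fold change of additional over numbered WT libraries (vertical axis) for protein-coding genes grouped by the GC content of their longest transcript (horizontal axis, percent, with the number of genes). Filled points are medians with quartiles, which go from 0.515 in the lowest group to -0.729 at 56% to 60% GC, and open diamonds are medians after the GC offset, which lie between -0.124 and -0.0293.

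The sterol pathway was lower throughout. Cholesterol is built from acetyl units through mevalonate and squalene, and its enzymes share control by the sterol-sensing factor SREBP2. All 21 genes of the cholesterol list were lower in the additional set (background 28.6% of genes lower), with a median log2 change of -1.47, and 19 of 21 were lower with the GC offset, with a median of -1.60. The members not past the threshold with the offset were Srebf2, the gene of SREBP2, and Pmvk, a mevalonate pathway kinase. Several promoters of the pathway carry a CCAAT box, the recognition letters of NF-Y, which is known to act together with SREBP2 on sterol genes. Of the 15 members matched in the RefSeq promoter table (GRCm38.p6), 14 held CCAAT on either strand within 250 bases before the start (93.3%), against 10133 of the 27025 genes of that table (37.5%), where a gene counts if any of its listed starts has the box, and all 14 were lower. Acat2, the matched member without the box, was lower too. As every member was lower, the box cannot be set against the fall within this list. The promoter table also includes genes not tested here. A part of the box in the lower levels was not tested. Stretches around the box nearest to the start are shown for 4 enzymes along the pathway, to show the letters these lower genes share, with the box in capitals, read 5′ to 3′ on the gene's strand.
Hmgcs1 (plus strand, chr13:119690281-119690335): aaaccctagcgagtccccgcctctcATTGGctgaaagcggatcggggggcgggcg
Cyp51 (minus strand, chr5:4104698-4104751): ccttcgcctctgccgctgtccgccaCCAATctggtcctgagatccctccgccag
Mvk (plus strand, chr5:114444230-114444268): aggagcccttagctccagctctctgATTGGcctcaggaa
Lss (plus strand, chr10:76531518-76531572): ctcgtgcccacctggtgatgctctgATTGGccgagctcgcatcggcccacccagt

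Lss, the lanosterol synthase that closes the sterol rings (chr10:76367422-76392972 in GRCm39), was at 126, 131 and 131 CPM in numbered libraries 1 to 3 and at 21.8 and 21.4 CPM in the additional libraries. Its log2 change was -2.58 ± 0.10 (SE; adjusted p = 4.49e-06). Lss was named for its small p-value, and the sets did not overlap for 71.9% of all tested genes, so the gap between its sets is no separate evidence. Mvk, the mevalonate kinase, was at 25.8 to 29.3 CPM against 5.25 and 7.02 CPM, and Hmgcs1, the synthase at the head of the pathway, at 352 to 369 CPM against 138 and 121 CPM. Fdps and Fdft1, which make farnesyl diphosphate and squalene, had log2 changes of -2.30 ± 0.11 and -1.93 ± 0.11. Stimulated WT cells did not share these low levels. There Lss was at 186 and 141 CPM, Hmgcs1 at 537 and 419 CPM, and Sqle, the squalene epoxidase, at 223 and 190 CPM against 191 to 199 CPM in the numbered set. The stimulated and the additional comparisons use the same numbered libraries.

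Interferon-stimulated genes formed the list with the lowest median. Of 40 members, 34 were lower in the additional set, none was higher and 6 did not pass the threshold (background 28.6% lower), with a median log2 change of -1.77. With the GC offset 35 were lower, and the median was -1.69. Many promoters of such genes carry the interferon-stimulated response element, bound by complexes of STAT and IRF proteins. Its core, searched as GAAA, any 2 bases and GAAA again on both strands within 250 bases before the start, was held by 13 of 29 matched members (44.8%) and by 936 of the 27025 genes of the promoter table (3.46%). Of the 13 members with the core 10 were lower, and of the 16 without it 13 were lower. Stretches around the core nearest to the start are shown for 4 members with falls of different size, to show the element they share, with every match in capitals.
Ifit1 (plus strand, chr19:34640779-34640838): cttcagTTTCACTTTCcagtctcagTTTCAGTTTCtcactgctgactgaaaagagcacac
Oas3 (minus strand, chr5:120777700-120777759): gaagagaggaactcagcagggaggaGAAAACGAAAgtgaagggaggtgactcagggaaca
Isg15 (minus strand, chr4:156200850-156200909): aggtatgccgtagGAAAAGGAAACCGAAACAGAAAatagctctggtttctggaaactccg
Bst2 (minus strand, chr8:71537562-71537621): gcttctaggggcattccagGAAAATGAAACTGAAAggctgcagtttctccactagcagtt

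Ifit1, whose protein binds foreign RNA (chr19:34618271-34627409 in GRCm39), was at 14.7, 11.8 and 11.9 CPM in the numbered and at 1.53 and 0.616 CPM in the additional libraries, a log2 change of -3.59 ± 0.34 (adjusted p = 4.45e-05). Oas3, an antiviral oligoadenylate synthetase, was at 28.7, 17.3 and 19.7 CPM against 3.85 and 2.03 CPM (-2.91 ± 0.32). Isg15, a ubiquitin-like modifier, was at 63.7, 38.9 and 45.2 CPM against 14.2 and 17.0 CPM (-1.66 ± 0.22, adjusted p = 0.00023). Both additional libraries were below all numbered libraries for each of these genes, where 71.9% of all tested genes had sets without overlap. Irf7, the transcription factor that amplifies interferon production, was at 35.3, 23.4 and 29.4 CPM against 3.79 and 5.18 CPM (-2.71 ± 0.23). Ifi35, an interferon-induced leucine zipper protein, went from 78.4, 66.1 and 63.4 CPM to 10.9 and 12.6 CPM (-2.57 ± 0.15), the smallest adjusted p of the list at 7.95e-06. Bst2, which tethers budding virus at the membrane, was at 122, 89.0 and 90.0 CPM against 31.0 and 32.2 CPM. Numbered library 1 was the highest of the 5 for several members. Zbp1, a sensor of nucleic acids, was at 152 CPM there against 66.8 and 75.4 CPM in the other numbered libraries, and Igtp, a GTPase induced by interferon gamma, at 109 against 37.2 and 46.3 CPM. Gbp2, another such GTPase, reached 269 CPM there against 71.5 and 109 CPM in the other numbered libraries and 54.6 and 92.9 CPM in the additional set, and did not pass the threshold (adjusted p = 0.0996). Without numbered library 1 the list's median was -1.44, with 34 members lower and 1 higher. Tbx21, induced by interferon gamma and not on this list, was at 32.5 CPM in numbered library 1 and at 2.82 to 4.87 CPM in the other 4. Stimulated WT libraries were low as well, with Isg15 at 2.55 and 0.913 CPM, Ifit1 at 1.72 and 0.457 CPM and Irf7 at 3.85 and 1.31 CPM.

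**Figure D2:**
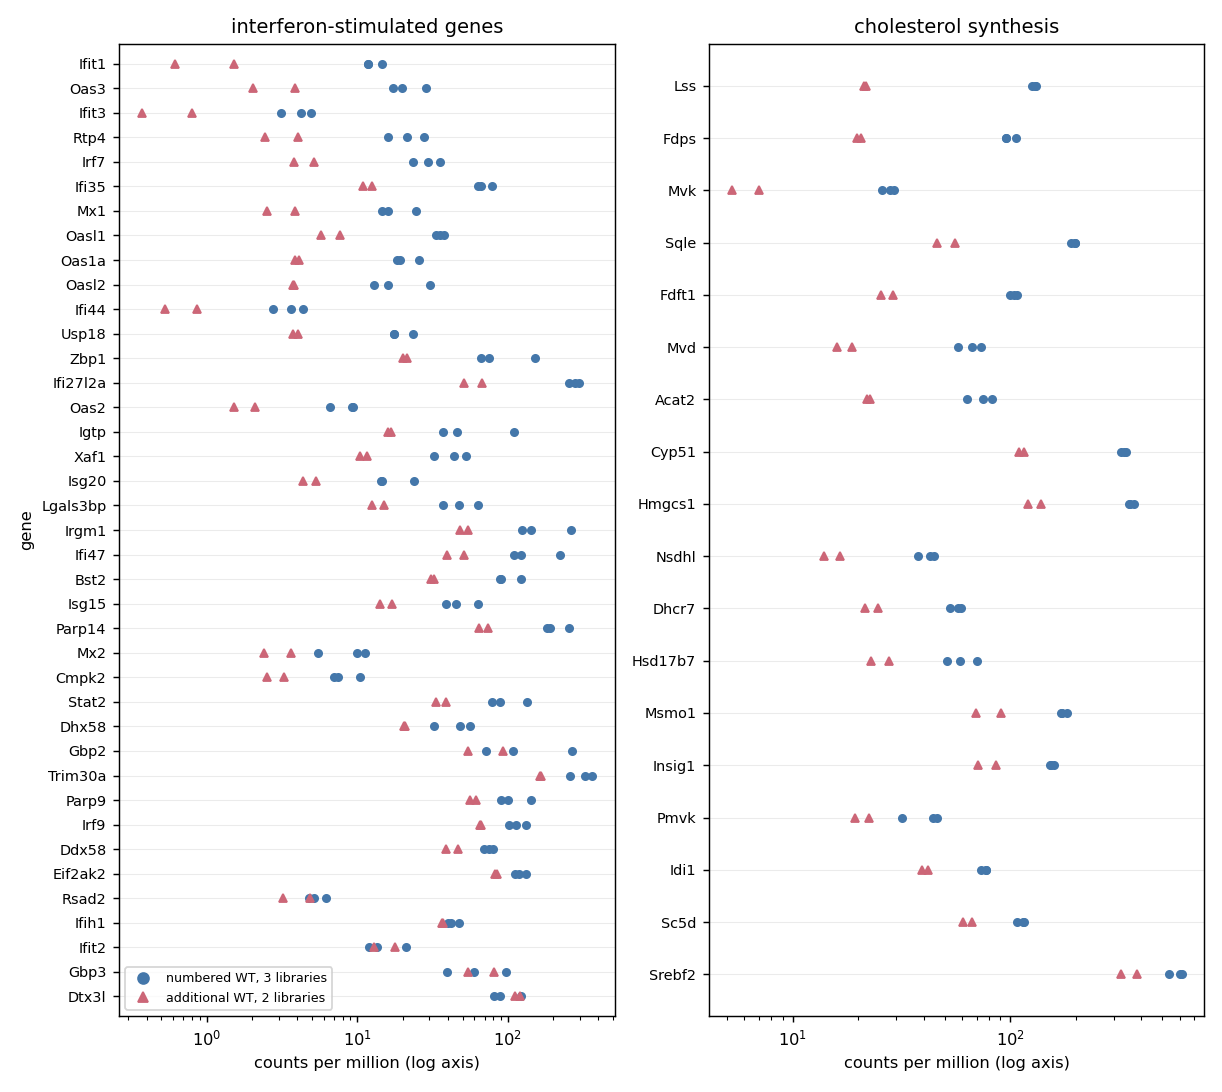
CPM (horizontal log axis) of tested interferon-stimulated genes (left) and cholesterol synthesis genes (right), apart from members not reported here, in the 3 numbered (circles) and 2 additional (triangles) WT libraries, ordered by fold change. The additional libraries lie to the left for every cholesterol gene drawn and for most interferon-stimulated genes, while the circles of single genes such as Zbp1 and Gbp2 spread because of numbered library 1.

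Genes of ribosome assembly were lower while many ribosomal protein genes were higher. Ribosome biogenesis factors process ribosomal RNA in the nucleolus and are classical targets of the transcription factor MYC. Of the 35 listed, 30 were lower and 1 was higher (background 28.6% and 26.3%), with a median log2 change of -1.02. With the GC offset 31 were lower and 2 higher, with a median of -0.953. Rrp9, a component of the U3 particle that cuts the ribosomal RNA precursor (chr9:106353162-106362623), was at 113, 124 and 105 CPM against 17.5 and 18.1 CPM (-2.69 ± 0.12, adjusted p = 5.86e-06), and was lower by -2.03 with the offset. Nolc1, a nucleolar scaffold, was at 430, 418 and 409 CPM against 104 and 119 CPM (-1.91 ± 0.11). The sets did not overlap for either gene, as for 71.9% of all tested genes, and both were named for small p-values. Mybbp1a, a nucleolar protein, was at 774 to 953 CPM against 187 and 226 CPM, and Srm, the spermidine synthase, at 193 to 224 CPM against 41.4 and 59.2 CPM (-2.07, and -1.43 with the offset). Myc itself was at 322, 427 and 342 CPM against 256 and 225 CPM (-0.60 ± 0.14, adjusted p = 0.00529), and at -0.24 with the GC offset (adjusted p = 0.212), where it did not pass. Polr1c, a subunit shared by RNA polymerases I and III, was the only member higher without the offset, by 0.93 ± 0.09 to 189 and 181 CPM. Npm1 and Ncl, the abundant nucleolar proteins, had log2 changes of -0.02 and -0.18 and did not pass the threshold (adjusted p = 0.826 and 0.128), while with the GC offset both were lower, by -0.36 and -0.50. In stimulated WT cells Rrp9 was at 39.8 and 28.7 CPM and Nolc1 at 235 and 183 CPM, also under the numbered libraries.

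Of 71 cytosolic ribosomal protein genes, 36 were higher and 10 lower (background 26.3% and 28.6%), with a median log2 change of 0.262. With the GC offset 44 were higher and 6 lower, and the median was 0.521. Rps20 was at 791, 699 and 724 CPM against 2089 and 2205 CPM (1.54 ± 0.09), and Rplp2, an acidic protein of the ribosomal stalk, at 682 to 703 CPM against 1641 and 1577 CPM (1.21 ± 0.085). Rplp0, the core of the same stalk, went the other way, from 3394 to 3537 CPM to 1586 and 1958 CPM (-0.97 ± 0.11, adjusted p = 8.78e-05, and -0.64 with the offset). The members of this list did not move as a unit. Ribosomal protein genes have many near-identical processed pseudogenes, so reads can be split between copies and single members are uncertain.

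Energy metabolism differed in its nuclear and mitochondrial parts. The respiratory chain in mitochondria is assembled from proteins of both genomes. Of 36 nuclear-encoded subunits, 27 were lower and 2 higher (median log2 -0.479, background 28.6% and 26.3%). With the GC offset 24 were lower and 1 higher. Uqcrq, a subunit of complex III, was at 187, 180 and 178 CPM against 68.3 and 78.1 CPM (-1.31 ± 0.10, adjusted p = 1.86e-05). Atp5b, the catalytic subunit of ATP synthase, was at 1218 to 1297 CPM against 661 and 752 CPM. Of 15 genes of the mitochondrial genome, 8 were higher and 1 lower (median 0.772), but with the GC offset 3 were higher and 3 lower (median 0.156), and their median GC content is 36%. Among them mt-Co1, a core subunit of complex IV, was at 8010, 8941 and 7992 CPM against 16510 and 15980 CPM, and its change was 0.96 ± 0.079 without and 0.50 with the offset. The count of higher members of the mitochondrial genome thus depends on the offset.

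Stress and biosynthesis programmes were mostly lower. The ATF4 response supplies amino acids and charged transfer RNAs. Of its 20 listed genes 15 were lower and 2 higher (median log2 -0.898, background 28.6% and 26.3%), or 13 and 2 with the GC offset. Phgdh, the entry enzyme of serine synthesis, was at 548, 513 and 533 CPM against 143 and 169 CPM (-1.77 ± 0.11). Shmt2, which passes serine carbon into the folate pool of mitochondria, was at 784, 884 and 821 CPM against 204 and 267 CPM (-1.82 ± 0.14). Slc7a5 and Slc3a2, whose products form the large amino acid transporter of activated lymphocytes, had log2 changes of -1.54 ± 0.15 and -1.02 ± 0.12. Under the offset Phgdh was at -1.18, Shmt2 at -1.23, Slc7a5 at -0.99 and Slc3a2 at -0.65. Slc7a5 was at 518 to 659 CPM in the numbered, at 176 and 229 CPM in the additional and at 125 and 106 CPM in the stimulated libraries. Ddit3, a stress transcription factor also known as CHOP, and Vldlr, a lipoprotein receptor, were the members that were higher, by 1.26 ± 0.13 and 2.69 ± 0.31.

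Of 17 heat shock genes 10 were lower and 2 higher (median log2 -0.748, background 28.6% and 26.3%), or 10 and 1 with the GC offset. Hsph1, a large co-chaperone, was at 288, 256 and 303 CPM against 85.2 and 84.5 CPM (-1.74 ± 0.11), and Hspd1, the chaperonin of mitochondria, at 1195 to 1259 CPM against 507 and 551 CPM (-1.22 ± 0.094). Of 23 genes of the unfolded protein response, which widens the folding capacity of the endoplasmic reticulum, 13 were lower and 4 higher (median -0.402), or 13 and 3 with the offset. Its chief chaperone gene Hspa5 was at 1274, 1140 and 1225 CPM against 470 and 417 CPM (-1.46 ± 0.10), and Xbp1, the transcription factor of the response, at 127 to 139 CPM against 71.8 and 57.6 CPM (-1.03 ± 0.12). Both additional libraries were lower than all numbered ones for these chaperones, where 71.9% of all tested genes had sets without overlap. Ero1b (an oxidase of the endoplasmic reticulum, listed as Ero1lb) was higher, at 71.5 to 80.4 CPM against 204 and 178 CPM.

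Activation genes did not move in a single direction. Immediate early genes, which encode short-lived transcription factors and phosphatases, were higher for 14 and lower for 3 of 25 members (background 26.3% and 28.6%), with a median log2 change of 0.724, and higher for 19 and lower for 2 with the GC offset (median 1.17). Egr1, an early target of B cell receptor signalling, was at 56.8, 87.3 and 69.0 CPM against 329 and 280 CPM (2.10 ± 0.16, adjusted p = 1.84e-05). Fos, a subunit of the AP-1 factor, was at 1.51, 2.09 and 0.984 CPM against 8.97 and 13.2 CPM (2.86 ± 0.33). Nr4a1, an orphan nuclear receptor used as a reporter of antigen receptor signals, was at 33.8, 65.1 and 48.4 CPM against 241 and 108 CPM (1.82 ± 0.32), and Nr4a3 at 14.4 to 19.6 CPM against 134 and 45.6 CPM. Egr1 was higher by 2.69 and Nr4a1 by 2.42 with the offset. Additional library 1 was above additional library 2 for both Nr4a genes, and both were above all numbered libraries. Stimulated cells were lower than either untreated set for Egr1 (13.0 and 17.6 CPM) and Fosl2 (0.885 and 0.799 CPM against 7.61 to 11.3 in the numbered and 40.2 and 23.9 in the additional set).

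NF-kB and CD40 response genes were higher for 9 and lower for 13 of 29 members (background 26.3% and 28.6%). Nfkb1, which encodes the p105 precursor, was at 503, 606 and 534 CPM against 200 and 240 CPM (-1.32 ± 0.13, adjusted p = 4.81e-05), and Cd40, the receptor itself, at 144, 110 and 109 CPM against 40.1 and 49.4 CPM (-1.44 ± 0.16). Rel, the lymphoid NF-kB subunit, went the other way, at 547, 740 and 653 CPM against 1781 and 1263 CPM (1.23 ± 0.16). Relb, Nfkb2, Tnip1 and Map3k14 were lower without the GC offset and did not pass the threshold with it, and with it 11 members were higher and 7 lower. Of 16 activation surface proteins 9 were higher and 4 lower, or 8 and 4 with the offset. Cd44, an adhesion receptor of activated cells, was at 213 to 226 CPM against 433 and 413 CPM (0.94 ± 0.09) and at 420 and 421 CPM after stimulation. Cd70, the ligand of CD27, was at 2.46 to 4.01 CPM against 12.4 and 14.2 CPM (2.09 ± 0.25, and 2.69 with the offset), and at 6.35 and 8.10 CPM after stimulation. Il2ra and Cd83 had log2 changes of 0.23 and 0.20 and did not pass (adjusted p = 0.0622 and 0.103), and with the GC offset Cd83 was higher by 0.45 and Il2ra was at -0.0025.

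**Figure D3:**
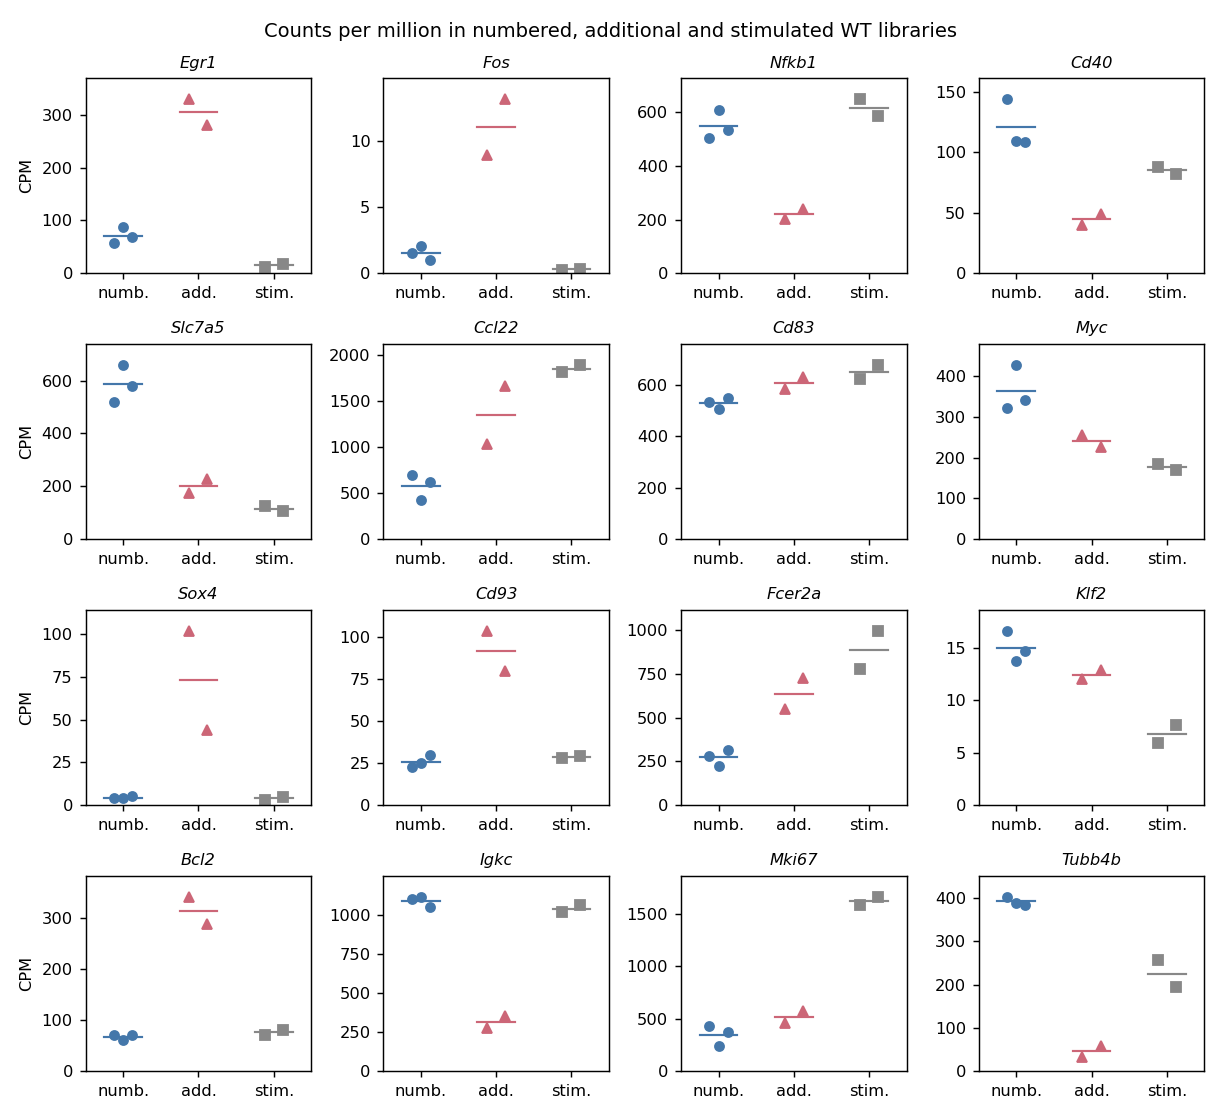
CPM (vertical axes, each from 0) of 16 genes in the numbered (numb., 3 libraries), additional (add., 2) and stimulated (stim., 2) WT libraries, where points are libraries and lines are means. Egr1, Sox4, Cd93 and Bcl2 are highest in the additional set, Igkc, Nfkb1, Cd40 and Tubb4b are lowest there, and Mki67 is highest after stimulation.

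Many genes known from earlier and resting B cell stages were higher, some of them in stimulated cells as well. In bulk RNA a larger share of cells of a stage and more RNA per cell cannot be told apart. Of 7 tested transitional and immature B cell genes 6 were higher and none was lower (median log2 1.10, background 26.3% and 28.6%). With the GC offset 6 were higher and 1, Ms4a4c, was lower. The list named 13 genes, and Vpreb1, Igll1, Rag1, Rag2, Dntt and Erg did not pass the filter on low counts. Sox4, a transcription factor of early lymphocytes (chr13:29132902-29137696), was at 3.91, 3.87 and 5.02 CPM against 102 and 44.1 CPM (4.08 ± 0.32, adjusted p = 1.86e-05). Cd93, the surface marker used to gate transitional cells, was at 22.6, 24.98 and 29.8 CPM against 103 and 79.7 CPM (1.82 ± 0.15), and Cd24a at 259 to 353 CPM against 689 and 603 CPM (1.10 ± 0.13). The level of Sox4 differed between the additional libraries by more than its level in any numbered library, and both were still above that set. Stimulated libraries held Sox4 at 2.81 and 4.91 CPM and Cd93 at 28.3 and 29.1 CPM. Cd24a, at 479 and 542 CPM, and Bcl2l11, at 195 and 206 CPM, were above all numbered libraries there too.

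Follicular and quiescence genes were higher for 13 and lower for 3 of 19 members (median log2 0.609, background 26.3% and 28.6%), with the same counts under the GC offset. Cdkn1b, the cell cycle inhibitor p27, was at 107, 89.9 and 105 CPM against 360 and 257 CPM (1.61 ± 0.14). Fcer2a, the IgE receptor CD23 of follicular cells, was at 279, 224 and 316 CPM against 548 and 727 CPM (1.22 ± 0.16). Il4ra, the interleukin 4 receptor, was lower, at 95.3 to 119 CPM against 51.7 and 49.7 CPM (-1.11, and -0.58 with the offset). Klf2 was at -0.28 ± 0.16 and did not pass (adjusted p = 0.171), and was at 0.40 with the offset (adjusted p = 0.0504). Fcer2a was higher still after stimulation, at 780 and 995 CPM. Btg1, at 475 to 498 CPM against 880 and 1060 CPM, was at 784 and 819 CPM there. Cdkn1b was at 91.7 and 147 CPM after stimulation. Cxcr4, at 40.4 to 42.5 CPM against 90.7 and 78.0 CPM, was at 26.6 and 28.2 CPM there.

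Germinal centre genes were higher for 9 and lower for 1 of 15 members (median 0.639, background 26.3% and 28.6%). The list does not separate genes that are high in germinal centre cells from genes that are low in them. Cd38, at 120 to 136 CPM against 282 and 272 CPM (1.10 ± 0.092), counts among the 9. The count of higher members is thus no measure of a germinal centre state. Bcl6, the master repressor of germinal centre cells, was at 20.6 to 24.3 CPM against 24.8 and 15.7 CPM and did not pass (adjusted p = 0.449). Gna13, a G protein that holds germinal centre cells in place, was at 157 to 168 CPM against 458 and 346 CPM (1.30 ± 0.12). The germinal centre counts were the same with the GC offset. Marginal zone genes gave 4 higher and 5 lower of 18, B1 and age-associated genes 5 and 5 of 17, and plasma cell genes 3 and 4 of 14. The counts of these 3 lists were near the shares of all genes (26.3% higher and 28.6% lower). With the offset they were 4 and 3, 3 and 3, and 5 and 4 (background 25.6% and 24.3%). The largest change without the offset among the last 3 lists that passed was that of Ly6c2, at 9.70, 3.62 and 4.66 CPM against 1.06 and 1.29 CPM, a gene that is also a monocyte marker.

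Of 32 genes of receptor signalling and identity 10 were higher and 12 lower against a background of 26.3% and 28.6%, with a median log2 change of -0.067, and 13 and 8 with the GC offset. Pax5, the factor that keeps B cell identity, was at 576, 651 and 639 CPM against 1327 and 1252 CPM (1.05 ± 0.094, adjusted p = 3.24e-05), and Ebf1, its partner in early development, at 104 to 129 CPM against 219 and 229 CPM. Ptpn6, the inhibitory phosphatase SHP-1, was at 819, 771 and 830 CPM against 356 and 389 CPM (-1.12 ± 0.10), and Spi1, the factor PU.1, at 39.5 to 45.5 CPM against 17.0 and 19.5 CPM (-1.23). Under the offset Ptpn6 was lower by -0.65 and Spi1 by -0.59. Of 11 immunoglobulin constant genes 5 were lower and 1 was higher, or 4 and 1 with the GC offset. Igkc, the kappa light chain, was at 1098, 1114 and 1047 CPM against 272 and 353 CPM (-1.80 ± 0.13, adjusted p = 1.4e-05), and at 1016 and 1059 CPM after stimulation. Ighm, the heavy chain of IgM, was at 2433 to 3118 CPM against 1637 and 2254 CPM (-0.51 ± 0.15), and did not pass with the GC offset (adjusted p = 0.125) or without additional library 1 (0.132). Ighg1, the heavy chain of IgG1, was higher, at 14.8 to 29.1 CPM against 48.1 and 85.4 CPM (1.53 ± 0.29), and reached 139 and 130 CPM after stimulation.

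Antigen presentation genes were higher for 2 and lower for 11 of 22 (background 26.3% and 28.6%). Cd74, the invariant chain that escorts class II molecules, was at 2143, 1980 and 2084 CPM against 790 and 1093 CPM (-1.14 ± 0.14), and at 3402 and 3541 CPM after stimulation, and its change was -0.58 with the GC offset. H2-Ob, a subunit of the class II modulator of resting B cells, was at 128, 80.0 and 125 CPM against 405 and 367 CPM (1.80 ± 0.18, adjusted p = 5.22e-05). After stimulation H2-Ob was at 365 and 391 CPM, so its higher level is not particular to the additional set. With the GC offset 4 members were higher and 7 lower, and the class I heavy chain gene H2-D1, at -0.57 without it, was at -0.04.

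Cell survival genes differed in both directions. Bcl2, which blocks mitochondrial cell death, was at 69.9, 60.2 and 69.6 CPM against 341 and 287 CPM (2.23 ± 0.11, adjusted p = 7.91e-06). Its antagonists Bak1 and Bax were lower, Bak1 at 80.1 to 99.0 CPM against 26.3 and 32.7 CPM (-1.60 ± 0.14) and Bax at 93.2 to 99.7 CPM against 48.0 and 52.4 CPM (-0.96 ± 0.10), while the antagonist Bcl2l11 was higher (0.92 ± 0.095). Under the GC offset Bak1 was at -1.02 and Bax at -0.30 (adjusted p = 0.0356), and Bax did not pass with the offset and only the male libraries (-0.25, adjusted p = 0.0599). Of all 20 genes of the BCL2 and apoptosis list 10 were higher and 3 lower (background 26.3% and 28.6%), or 11 and 3 with the offset. Of 22 p53 target genes 13 were higher and 3 lower (median log2 0.551), or 13 and 1 with the offset. Trp53inp1, a stress-induced partner of p53, was at 38.5, 41.9 and 37.2 CPM against 334 and 226 CPM (2.83 ± 0.15), whereas Cdkn1a, the best known p53 target, was at 46.0 to 55.4 CPM against 72.0 and 37.3 CPM and did not pass (adjusted p = 0.625).

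Cell cycle genes varied within the numbered set. Of 30 mitosis genes 12 were higher and 2 lower (median log2 0.433, background 26.3% and 28.6%). With the GC offset 7 were higher and 1 lower (background 25.6% and 24.3%), so the higher count was then near the share of all genes. Nusap1, a spindle protein, was at 65.3, 30.1 and 58.2 CPM against 117 and 151 CPM (1.38 ± 0.26), and Top2a, the topoisomerase of dividing cells, at 541, 268 and 429 CPM against 612 and 752 CPM (0.72 ± 0.24). Numbered library 2 was the lowest of the 5 for both. Ccnb1 (cyclin B1) was lower, at 57.2, 26.9 and 49.5 CPM against 16.3 and 29.8 CPM, with overlapping sets. Ccnb1 did not pass without numbered library 1, numbered library 3 or additional library 1 (adjusted p = 0.085, 0.0864 and 0.244), and Top2a did not pass without numbered library 3, additional library 1 or additional library 2 (adjusted p = 0.0613, 0.0607 and 0.2) or with the GC offset (0.166). Of 30 DNA replication genes 4 were higher and 9 lower, or 5 and 7 with the GC offset. Both lower counts were near the shares of all genes (28.6%, and 24.3% with the offset). Mcm2, a subunit of the replicative helicase, was at 243, 225 and 231 CPM against 86.7 and 112 CPM (-1.23 ± 0.13, adjusted p = 6.32e-05). The 6 tested histone genes gave no call, or 1 higher with the GC offset, and their mRNAs largely lack the poly(A) tail used to select RNA here.

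Glycolysis and hypoxia genes showed the same feature of numbered library 2. The list gave 9 higher and 5 lower of 25 (background 26.3% and 28.6%), with a median log2 change of 0.167. With the GC offset it gave 13 higher and 3 lower, with a median of 0.551. Its summed level was 9768 and 9028 CPM in numbered libraries 1 and 3, 6002 CPM in numbered library 2, and 8436 and 6713 CPM in the additional set. Egln3, an oxygen sensor induced by hypoxia, was at 8.34, 0.307 and 6.11 CPM against 47.7 and 24.0 CPM (2.83 ± 0.67, adjusted p = 0.00628), and did not pass without additional library 1 (2.26, adjusted p = 0.0799). Bnip3, a hypoxia-induced mitophagy receptor, was at 62.2, 15.6 and 50.9 CPM against 237 and 143 CPM (2.14 ± 0.44). Eno1, a glycolytic enzyme, was lower, at 781, 358 and 687 CPM against 195 and 190 CPM (-1.67 ± 0.28, and -1.05 with the GC offset). Without numbered library 2 the list gave 10 higher and 7 lower, with a median of 0.0694. Ddit4, an inhibitor of mTOR induced by low oxygen, did not vary among the numbered libraries, at 134, 139 and 138 CPM against 438 and 299 CPM (1.42 ± 0.14, and 2.05 with the GC offset), and Vegfa, an angiogenic factor, was at 85.4 to 100.2 CPM against 192 and 157 CPM. Stimulated cells held Vegfa at 3.75 and 11.9 CPM. Whether the sex of library 2 has a part in its low values was not tested.

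**Figure D4:**
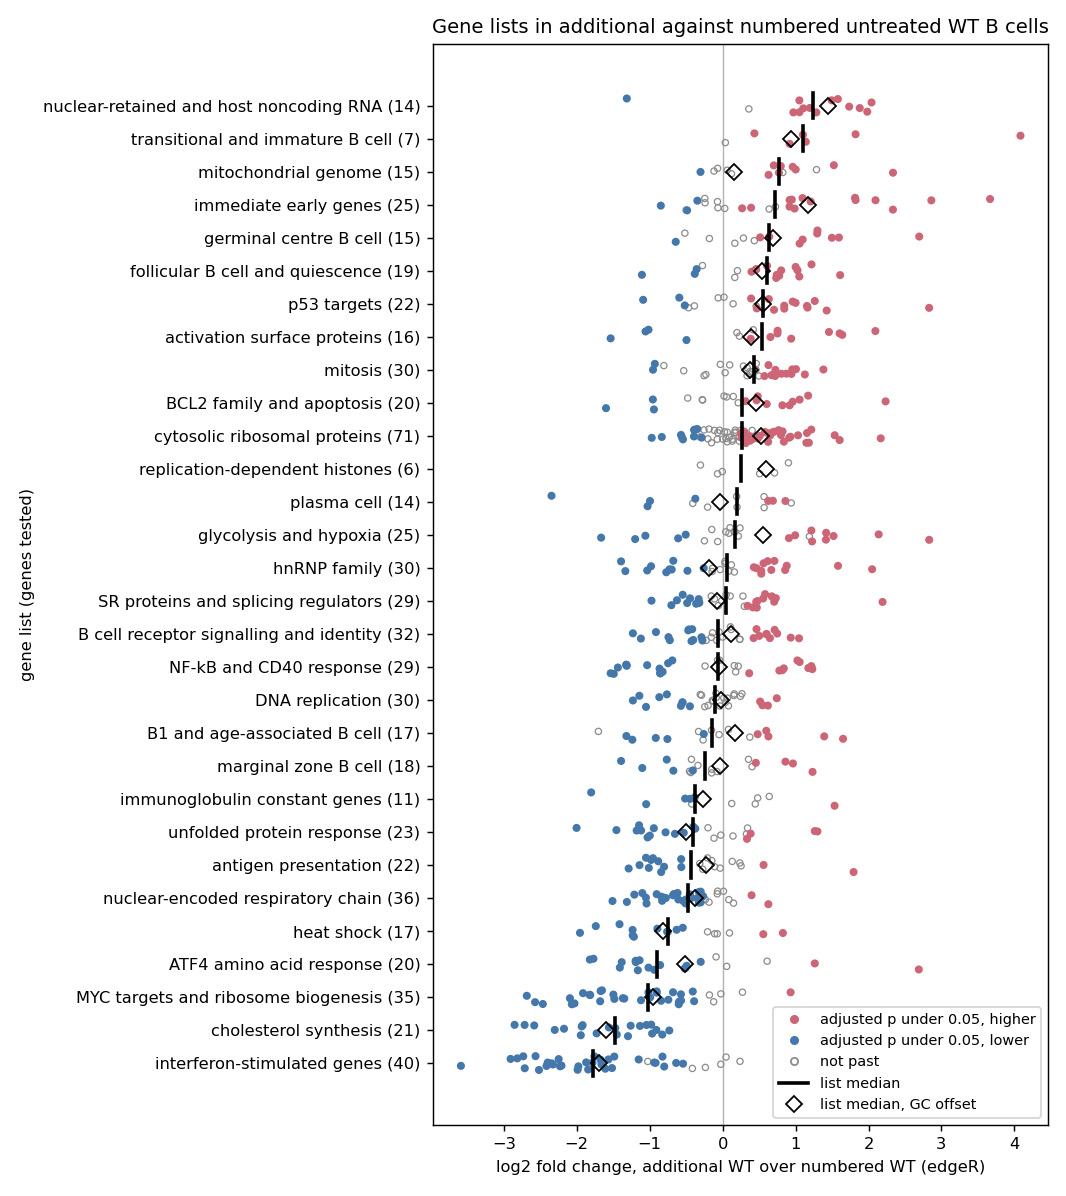
Log2 fold change of additional over numbered WT libraries (horizontal axis) for the tested members of the gene lists with at least 5 tested genes (rows, with the number of genes), apart from sex-linked genes and markers of other cell types, ordered by the list median. Filled points passed an adjusted p of 0.05, bars are medians and diamonds medians with the GC offset, which in the lists drawn run from -1.77 and -1.69 for interferon-stimulated genes to 1.24 and 1.44 for nuclear-retained and host noncoding RNA.

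RNA-binding proteins included the genes deleted in the DKO mice. Hnrnpa1 (chr15:103148859-103155119) was at 742, 721 and 718 CPM in the numbered and at 1197 and 1119 CPM in the additional libraries (0.67 ± 0.087, adjusted p = 0.000223), and at 0.42 with the GC offset. The predicted gene Gm10052, a near-identical copy, was at 440 to 536 CPM against 1430 and 1526 CPM, so the split of reads between them is uncertain. Hnrnpa2b1 was at 2021, 1784 and 1959 CPM against 1845 and 2096 CPM (0.03 ± 0.10, adjusted p = 0.796). The hnRNP family as a whole gave 12 higher and 10 lower of 30 (background 26.3% and 28.6%), and 8 and 13 with the GC offset. Its median log2 change went from 0.058 to -0.190. Ptbp1, a repressor of exon use, was at 704, 766 and 743 CPM against 250 and 314 CPM (-1.39 ± 0.12). Of 29 SR proteins and splicing regulators 11 were higher and 10 lower, and 2 and 10 with the offset. Luc7l2, a component of the U1 particle, was far above its list, at 432, 493 and 468 CPM against 2551 and 1709 CPM (2.19 ± 0.15), while Srsf2, a splicing activator, was at 590 to 640 CPM against 283 and 349 CPM (-0.98 ± 0.12).

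Noncoding RNAs that stay in the nucleus or host small nucleolar RNAs in their introns were higher for 12 and lower for 1 of 14 members (background 26.3% and 28.6%), with a median log2 change of 1.24 and of 1.44 with the GC offset. Snhg12, such a host gene, was at 53.6, 55.7 and 56.7 CPM against 211 and 246 CPM (2.04 ± 0.10, adjusted p = 7.91e-06). Gas5, a host transcript that is degraded when translated, was at 498 to 538 CPM against 1028 and 997 CPM (0.97 ± 0.09, and 0.63 with the offset). Neat1, the scaffold of paraspeckles, was at 283, 304 and 326 CPM against 1241 and 791 CPM (1.74 ± 0.16). Malat1, which resides in nuclear speckles, was at 673, 1060 and 739 CPM against 2157 and 1275 CPM (1.05 ± 0.23), and did not pass without additional library 1 (adjusted p = 0.0686). Additional library 1 was the highest for both nuclear transcripts. Snhg3 was the member that was lower, at 11.0 to 12.8 CPM against 4.25 and 5.12 CPM.

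Among protein-coding genes with at least 5 CPM in a set, those with the largest changes are drawn by fold change. Gadl1, a decarboxylase (chr9:115738523-115905244), was at 0.209, 0.430 and 0.207 CPM against 8.30 and 7.83 CPM (4.83 ± 0.37, adjusted p = 1.69e-05). Rora, a nuclear receptor of innate lymphoid and T cells, was at 1.98, 1.35 and 3.16 CPM against 51.9 and 30.1 CPM (4.22 ± 0.32). H2-Q6, a nonclassical class I gene, was at 22.8, 24.6 and 17.4 CPM against 447 and 415 CPM (4.31 ± 0.15), and its neighbour H2-Q7 at 38.8 to 53.1 CPM against 422 and 269 CPM. H2-Q6 and H2-Q7 are close copies, so the share of each is uncertain. The remaining large rises were those of the metallothioneins Mt1 and Mt2, Sox4, Fosb, Mturn, Nphs1, Wipi1, Lst1 and Prlr, between 3.01 for Prlr and 4.81 for Mt2. Mt2, which binds zinc, was at 5.53, 1.902 and 2.07 CPM against 128 and 53.1 CPM.

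Apol7c, an apolipoprotein L family member (chr15:77409052-77417516), was at 82.6, 64.1 and 62.2 CPM against 1.79 and 2.84 CPM (-4.90 ± 0.24, adjusted p = 7.91e-06). Stimulated cells held it at 2.76 and 1.66 CPM. Tubb4b, a beta tubulin, was at 403, 390 and 384 CPM against 32.6 and 58.1 CPM (-3.11 ± 0.23), and at 256 and 193 CPM after stimulation. Mvp, the shell protein of vault particles, was at 119, 139 and 126 CPM against 17.2 and 14.1 CPM (-3.04 ± 0.14). These 3 genes were well counted in every numbered library, and the gap between the sets follows from their choice as largest falls without overlap. Uchl1, a neuronal ubiquitin hydrolase, held 108, 91 and 110 counts in the numbered and 0 and 2 counts in the additional libraries, a ratio of 88.2 with a counting interval of 24.2 to 732. Tmem254a held 231, 503 and 486 counts against 0 in both additional libraries, at least 232-fold lower with a floor of 3 counts over the set. The additional table lists 3 Tmem254 genes, Tmem254a, Tmem254b and Tmem254c, each at 0, where the numbered table lists only Tmem254a, and whether the listing has a part in these 0 counts was not tested. The other large falls were Nqo1, Lad1, Ifit1, Ifi204, Dll4, Slc15a2 and Oas3, from -4.29 for Nqo1 to -2.91 for Oas3. Slc15a2, a peptide transporter, was uneven between the additional libraries, at 0.133 and 1.60 CPM.

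**Figure D5:**
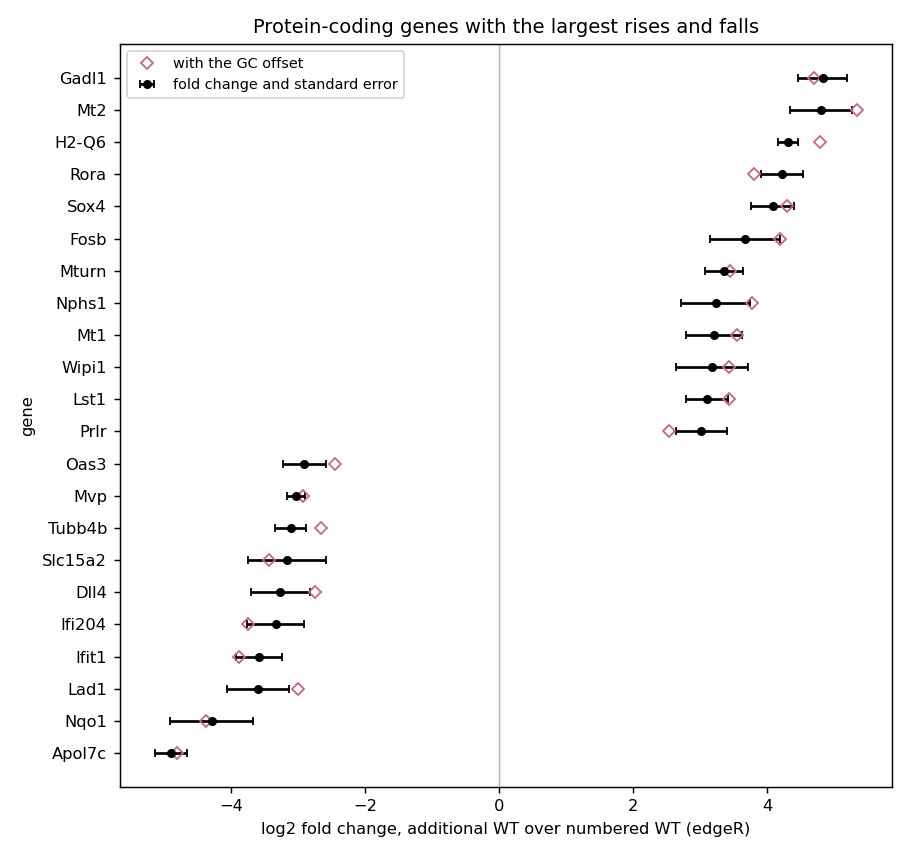
Log2 fold change of additional over numbered WT libraries (horizontal axis) with standard errors (black) and with the GC offset (open diamonds) for the protein-coding genes with the largest rises and falls. Tmem254a and Uchl1 are left out because the additional libraries held 0 and 2 counts of them, and the fold changes shown run from 4.83 for Gadl1 to -4.90 for Apol7c.

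Markers of other cell types were low, with exceptions. Of 19 T cell markers 9 passed the filter, with 5 higher and 1 lower (background 26.3% and 28.6%). The summed level of the T cell markers was 116 to 152 CPM in the numbered and 188 and 193 CPM in the additional set. Most of it came from Lck (74.8 to 99.9 against 125 and 128 CPM). Of the T cell receptor complex, Cd3e was at 0.104 CPM at most, Cd3d at 0.266 CPM at most and Trac at 1.66 CPM at most. Cd3g was higher in the additional set, at 0.208, 0.368 and 0.0518 CPM against 0.930 and 1.73 CPM (2.67, adjusted p = 0.00866), as was Cd247, at 0.313, 0.123 and 0.0518 CPM against 0.863 and 0.616 CPM (2.12, adjusted p = 0.0332), which did not pass with the GC offset (adjusted p = 0.0561) or without numbered library 2 or 3 or additional library 1 or 2 (adjusted p = 0.0641, 0.0891, 0.196 and 0.093). Cd3g did not pass without additional library 2 (adjusted p = 0.112). With the offset 4 T cell markers were higher and none was lower (background 25.6% and 24.3%). The sum of 17 monocyte and macrophage markers was 99.2 to 118 CPM against 236 and 285 CPM, and its most abundant member was Adgre1, the F4/80 antigen, at 31.1, 45.0 and 48.1 CPM against 172 and 220 CPM (2.24 ± 0.18, adjusted p = 2.04e-05). Csf1r, which defines that lineage, was at 0.982 to 2.97 CPM against 1.13 and 1.36 CPM, and Lyz2 was lower in the additional set, at 25.4, 11.1 and 6.99 CPM against 3.72 and 3.39 CPM, though not past the threshold without either additional library (adjusted p = 0.0588 and 0.0609). Lck did not pass without additional library 2 (adjusted p = 0.056). Hbb-bs, a globin gene, was at 18.3 CPM in numbered library 1 and at 0.675 to 4.14 CPM in the other 4. Sums of dendritic cell (941 to 1110 against 920 and 1006 CPM) and stromal markers (55.0 to 76.6 against 45.5 and 79.6 CPM) overlapped between the sets. Most of the dendritic sum came from Irf8 (409 to 568 against 324.5 and 324.8 CPM) and Tcf4 (335 to 382 against 540 and 466 CPM), which moved in opposite directions. Most of the stromal sum came from Pecam1 (52.7 to 74.2 against 44.2 and 78.8 CPM). The overlap of these sums thus does not measure the share of either cell type. Of 9 tested dendritic cell markers 2 were higher and 3 lower, and of 3 tested stromal markers 1 was lower (background 26.3% and 28.6%). The lower stromal marker was Kdr, at 0.675 to 1.36 CPM against 0 in both additional libraries. Sums were low but did not overlap for natural killer cell (8.70 to 14.3 against 6.44 and 7.40 CPM) and platelet markers (1.23 to 3.28 against 4.31 and 8.04 CPM). Among their members Nkg7 (2.03) and Gp1ba (2.61) were higher and Il2rb (-1.33) was lower. Neutrophil markers summed to at most 10.4 CPM in any library. The part of these cells in the differences above was not tested.

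Read per kilobase of exonic length, the most abundant genes were largely shared. Of the 10 genes with the highest mean CPM per kilobase, 7 were the same in both sets, among them Eef1a1, which carries transfer RNA to the ribosome (5883 ± 52.01 CPM per kb in the numbered and 7196 ± 125 in the additional set, SD, n = 3 and 2), and B2m, the light chain of class I molecules (2155 ± 204 and 2577 ± 143). Hsp90ab1, a cytosolic chaperone, was among the 10 only in the numbered set, at 2233 ± 105 against 1447 ± 67.7 CPM per kb.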

How the data were processed

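Poly(A) RNA of 5 untreated WT splenic B cell libraries was compared, 3 numbered and 2 additional. The tools named in the submitters' processing notes are HISAT2 2.2.1, HTSeq 0.6.1, cutadapt 1.9.1 and FastQC 0.10.1, and the build named is GRCm39. The sources used here state neither the strand setting nor the release of the annotation, and reads of a gene and of an overlapping or antisense gene may not be told apart. The authors deposited raw counts per gene in separate tables. The 12 FPKM columns in these tables were not used. Additional columns were matched to their set by name, and their order within it is that of the column names.

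Counts were joined on the gene identifier over 52340 shared genes, and CPM are counts scaled by their sum. Tests used edgeR 4.0.16 in R 4.3.3 (quasi-likelihood, TMM scaling, genes with a minimum count of 10 and a total of 15, Benjamini-Hochberg threshold 0.05). The standard error is the log2 fold change divided by the square root of F. Stimulated values come from a further, separately made table of the same series, of cells cultured for 48 h. Table, batch and culture cannot be told apart from stimulation there, and no GC offset was fitted for stimulated cells. GC content was taken from the longest GENCODE M21 transcript, and the GC offset is a loess curve per library with span 0.3. The test was tested on simulated data for this comparison (3 draws, 200 changed genes among 13640). There edgeR recovered 71.67% of 2-fold and 92.58% of 4-fold changes. With a simulated GC bias 1.634% of unchanged genes were called without and 0.05207% with the offset. The simulated bias was weaker than the GC relation seen here, and far fewer genes were changed than were called here. These shares therefore do not give the share of false calls in these data. Named genes were the 12 largest rises and falls among protein-coding genes with at least 5 CPM in a set and no overlap, the 4 smallest adjusted p-values of each list, both deleted genes, the 10 most abundant genes per length in each set, and others chosen after their values were seen. The members and the 39 lists were chosen with earlier results of these data known. Of the alternatives, 19 were planned and 5 were added after the data were seen, among them the GC offset. DESeq2 1.42.0 was one of them. No 2 libraries were near duplicates. A few genes that count in the lists are not reported here by name.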

Additional observations from a re-analysis of the deposited data

How the results depend on the processing

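The count of 7871 genes past the threshold stayed within 1.5 times under the scaling, filter, tool, gene set and offset alternatives, from 6801 with only protein-coding genes to 8313 with no filter on low counts, and DESeq2 gave 7676. Testing against a minimum log2 fold change of 1 gave 1346 genes, 657 higher and 689 lower. Leaving out each library in turn gave 5978 to 7803 genes, 2708 to 3782 higher and 3270 to 4021 lower. Where an additional library is left out, the remaining one is assumed to vary like the numbered ones. With the replicate number as a block, a replicate block that only numbers 1 and 2 share between the sets, 5698 genes passed, 2649 higher and 3049 lower. Same-numbered libraries did not deviate together (Pearson r = -0.0993 over 14357 genes). This rests on a single difference per set, between numbers 1 and 2, so it cannot decide whether the numbers pair the libraries. The medians of the cholesterol list (-1.662 to -1.385), interferon-stimulated genes (-1.953 to -1.438), ribosome biogenesis (-1.182 to -0.9043) and immediate early genes (0.4885 to 1.254) kept their sign over 24 settings. The medians of NF-kB, B cell receptor, hnRNP and splicing regulator genes changed sign under 4 settings each. With 3 residual degrees of freedom, the number of libraries limits the precision of each value. The sign of the log2 change of single genes, most of them not past the threshold, turned as follows, and the cause was not tested. With the GC offset the values were -0.146 for B2m, -0.241 for Hnrnpa2b1, -0.0025 for Il2ra, 0.401 for Klf2, -0.312 for Ms4a1 and -0.520 for Ms4a4c. With the GC and length offset they were -0.319 for B2m, 0.0791 for Bcl6, -0.0421 for Cr2, 0.0610 for H2-D1, -0.134 for Hnrnpa2b1, 0.491 for Klf2, -0.203 for Ms4a1, -0.443 for Ms4a4c and 0.0404 for Nfkb2, where Cr2, H2-D1 and Nfkb2 had passed without it. With the GC offset and only the male libraries they were -0.170 for B2m, 0.0460 for Bcl6, -0.296 for Hnrnpa2b1, 0.358 for Klf2, -0.342 for Ms4a1 and -0.539 for Ms4a4c. With no filter Hnrnpa2b1 was at -0.0234 and Ms4a4c at -0.0191, and with only the male libraries Hnrnpa2b1 was at -0.0061. Npm1 was at 0.00056 with the stricter filter, 0.0073 in the fit over all 12 libraries, 0.0615 with only protein-coding genes and 0.0027 without pseudogenes. Mvk stimulated WT over numbered WT was at -0.0039 with the 7 WT libraries only. Leaving out each library gave -0.551 to 0.0854 for Bcl6, -0.406 to 0.514 for Cdkn1a, -0.803 to 0.0518 for Csf1r, -0.0934 to 0.120 for Hnrnpa2b1, -0.0986 to 0.262 for Ms4a1, -0.0233 to 0.0972 for Ms4a4c, -0.0616 to 0.0239 for the Npm1 log2 fold change, -0.158 to 1.19 for Trac and -2.17 to 0.101 for Tbx21, which is positive without numbered library 1.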

Other observations

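Metallothioneins, small zinc-binding proteins, were both higher in the additional set. Mt1 had a log2 change of 3.20 and Mt2 of 4.81. These groups and the genes below were chosen after their values were seen. The Ifi200 family encodes proteins that sense DNA and are induced by interferon. Of its 12 tested genes 6 were lower and 2 higher (background 28.6% and 26.3%), with a median log2 change of -1.04. With the GC offset 8 were lower and none was higher (background 24.3% and 25.6%). Of 11 class Ib and class I-like H2 genes 3 were higher and 2 lower (background 26.3% and 28.6%), with a median of -0.322. The higher count was near the share of all genes. With the GC offset 4 were higher and 1 lower (background 25.6% and 24.3%). H2-Q10 was higher as well, by 1.55, but most of the group did not share the rise of H2-Q6 and H2-Q7.

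A few genes were nearly absent from a single set. Sgce, a sarcoglycan of muscle, held 1 count in each numbered library and 36 and 24 counts in the additional libraries, and Adipoq, an adipocyte hormone, held 1, 1 and 0 against 25 and 46 counts. Dscaml1, a neuronal adhesion molecule, went the other way, with 39, 27 and 42 counts against 2 in each additional library. By GENCODE M21 type, 155 of 330 lincRNA genes were higher and 26 lower (median log2 0.88, and 0.715 with the GC offset), while 2898 of 11539 protein-coding genes were higher and 3802 lower (median -0.0708).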
